A study of Homo sapiens with 4 samples.

Results

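The genes described here are 10 members of the matrix metalloproteinase system in hTERT-RPE1 cells, namely MMP1, MMP2, MMP3, MMP10, MMP14, MMP15, MMP24 and the inhibitors TIMP1, TIMP2 and TIMP3. They were taken by gene symbol from a table of 19653 genes, in which all 10 were present with 1 row each. hTERT-RPE1 cells are retinal pigment epithelial cells of human origin that telomerase keeps dividing, and no treatment is given in the labels. RNA of 4 libraries was sequenced. The 2 libraries labelled sgControl (genotype WT) came from cells that carried a lentiviral Cas9 vector with no guide RNA, and the 2 labelled sg53BP1 (genotype 53BP1 knockout) from cells given a vector with a guide against 53BP1. Cas9 vectors were thus shared by both groups; the sources used here do not say whether the knockout line was a single clone. 53BP1, encoded by TP53BP1, is a chromatin protein that steers the repair of DNA double-strand breaks. Separate cultures behind the libraries are not mentioned, so p-values speak only of the spread between these libraries, and that spread may be technical.

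Matrix metalloproteinases are zinc-dependent enzymes that cut proteins of the extracellular matrix and are made as inactive precursors. Collagenases such as MMP1 open fibrillar collagen, stromelysins such as MMP3 and MMP10 cut many matrix proteins and other precursors, the gelatinase MMP2 cuts denatured collagen and basement membrane, and the membrane-type enzymes MMP14, MMP15 and MMP24 act at the cell surface. TIMPs are secreted proteins that block the active site. On the cell surface, MMP14 and TIMP2 together bind the MMP2 precursor, which a neighbouring MMP14 molecule then activates. In the eye, the retinal pigment epithelium takes part in the turnover of Bruch's membrane, the matrix sheet on which it rests, and TIMP3 is a component of that sheet.

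Library totals lay between 16654411 and 18164086 gene counts. TP53BP1, the targeted gene, had 431 and 594 counts in the sgControl-labelled libraries and 1743 and 1516 counts in the sg53BP1-labelled ones. It was 2.94-fold higher where the knockout is labelled (adjusted p = 0.00224 in the edgeR test described below; adjusted p = 0.144 and 0.106 without sg53BP1 replicate 1 or 2), so all directions below follow the labels and would turn if the groups were exchanged. The libraries labelled sgControl lay further apart, with 412 genes at a mean of 5 CPM or more that differed over 2-fold, against 4 genes in the pair labelled sg53BP1. CPM, the usual scale of counts corrected for sequencing depth, is a gene's count relative to the TMM-scaled total of its library. Of 11 marker genes of retinal pigment epithelium, 5 (RPE65, RLBP1, TYR, TYRP1 and DCT) were under 1 CPM in every library or had no row. The summed level of the list, which also held the keratins KRT8 and KRT18, lay between 697 and 1063 CPM in the sgControl-labelled libraries. It lay between 679 and 718 CPM in the sg53BP1-labelled ones, and which genes carried the sum was not examined.

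Stretches before the transcription start are shown for the members at either end of the range of levels, to set their sequence beside their level. The RefSeq table held promoters of 6 of the 10 members, and MMP1, MMP2, MMP3 and TIMP2 were not among them. Each line gives 120 bases that end just before the start, 5′ to 3′ on the strand of the gene in build GRCh38.p14. Capitals mark the AP-1 motif TGANTCA, the TATA motif TATAAA and the GC-box motif GGGCGG, each searched on both strands. MMP14 (chr14:22836465-22836584, + strand) and TIMP1 (chrX:47582316-47582435, + strand) were abundant, while TIMP3 (chr22:32801585-32801704, + strand) and MMP10 (chr11:102780629-102780748, − strand) were close to the detection floor.
MMP14: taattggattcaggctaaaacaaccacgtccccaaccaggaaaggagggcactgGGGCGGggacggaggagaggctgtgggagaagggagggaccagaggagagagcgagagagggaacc
TIMP1: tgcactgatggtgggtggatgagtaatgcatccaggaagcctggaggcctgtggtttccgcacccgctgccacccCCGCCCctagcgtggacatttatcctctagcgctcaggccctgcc
TIMP3: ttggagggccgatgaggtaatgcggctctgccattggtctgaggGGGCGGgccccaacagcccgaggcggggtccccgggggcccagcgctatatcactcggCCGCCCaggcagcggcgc
MMP10: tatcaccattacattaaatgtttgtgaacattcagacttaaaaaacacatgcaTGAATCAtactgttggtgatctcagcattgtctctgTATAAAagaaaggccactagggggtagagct
Over the whole window of 300 bases, G and C made up 36.3% of the MMP10 promoter, 55% of MMP14, 65% of TIMP1 and 72.7% of TIMP3. MMP10 was the only one of the 6 members with a promoter here to hold the AP-1 motif (first base at −67) or the TATA motif (first base at −31). The GC-box motif occurred in the other 5 members, with 1 match in MMP14, 2 in TIMP1, 3 in MMP24 and 5 each in MMP15 and TIMP3. Among all 35116 promoters of the table, 7.71% held the AP-1 motif, 11.5% the TATA motif and 45% the GC-box motif. A GC-rich window with GC boxes was thus found both in abundant members and in TIMP3, which was hardly detected.

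Per length of transcript, the system was dominated by MMP14 and MMP2. On the scale of CPM per kilobase of exon, with exon lengths of GENCODE release 29, the level of MMP14 was 465 ± 123 (SD, n = 2) in the sgControl-labelled libraries and 348 ± 17.1 in the sg53BP1-labelled ones. The level of MMP2 on that scale was 407 ± 32.2 and 209 ± 4.49. By their mean over the 4 libraries these genes took ranks 57 and 84 among the 13140 genes with enough counts to be tested. TIMP1 followed with 84.8 ± 9.85 and 75.2 ± 6.88 CPM per kilobase, and TIMP2 with 78.2 ± 1.66 and 73.7 ± 0.512. The order of TIMP1 and TIMP2 turned between libraries, so these neighbours did not differ beyond their spread. MMP14 and MMP2 also changed places in sgControl replicate 2, where MMP2 stood at 384 and MMP14 at 377 CPM per kilobase. MMP15 (6.05 ± 3.33 and 4.65 ± 0.627), MMP1 (3.02 ± 1.53 and 0.268 ± 0.14) and MMP24 (0.183 ± 0.142 and 0.145 ± 0.0626) were far lower on the same scale. MMP3, MMP10 and TIMP3 had at most 13 counts in any library.

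**Figure D1:**
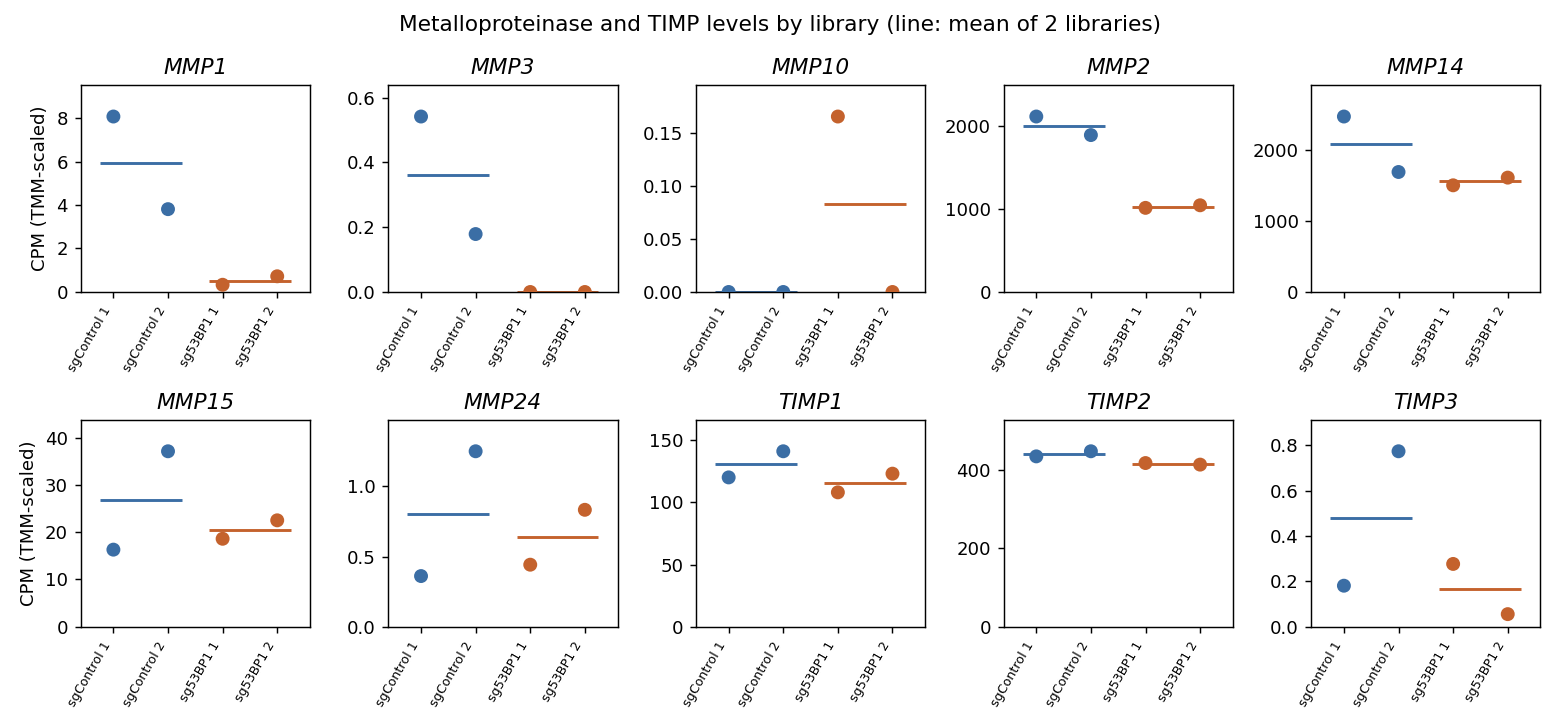
TMM-scaled CPM of each of the 10 genes in each of the 4 libraries, on linear axes from 0 with a separate range for each gene; points are libraries and lines the mean of the 2 libraries of a group. MMP1 and MMP2 stood apart between the groups, TIMP1 overlapped, and MMP3, MMP10 and TIMP3 stayed under 1 CPM.

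Of the 10 members, 7 had enough counts for the test, and MMP1 and MMP2 fell in the sg53BP1-labelled libraries while none rose. Over all 13140 genes tested, 667 or 5.08% had an adjusted p under 0.05 in the quasi-likelihood F test of edgeR, 3.01% as lower and 2.07% as higher in the sg53BP1-labelled libraries. The log2 fold change was negative in all 7 tested members and its median was −0.38, against a median of −0.02 over all genes tested. In MMP1, MMP2, MMP14 and TIMP2 both sg53BP1-labelled libraries were below both labelled sgControl, as was the case for 25.9% of all genes tested. MMP3, MMP10 and TIMP3 did not pass the filter on low counts and are given as counts below.

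MMP1, the interstitial collagenase, had 134 and 64 counts in the sgControl-labelled libraries and 6 and 13 counts in the sg53BP1-labelled ones. These counts corresponded to 8.07 and 3.81 CPM against 0.332 and 0.722 CPM, or means of 5.94 ± 3.02 and 0.527 ± 0.276 CPM (SD, n = 2 each). The groups did not overlap, although the sgControl pair itself lay 2.12-fold apart. The log2 fold change of MMP1 (ENSG00000196611, chromosome 11) was −3.48 (SE 0.55) with a 95% interval of −4.74 to −2.22, and its edgeR adjusted p was 0.0105. With limma-voom the adjusted p was 0.0628, and without sg53BP1 replicate 1 or 2 the edgeR adjusted p was 0.297 and 0.189, with log2 fold changes of −3.03 and −4.13. Leaving out sgControl replicate 1 gave −2.81 and leaving out sgControl replicate 2 gave −3.91. Those fits take their spread from the libraries labelled sg53BP1 alone, so passing the threshold in them adds no support. In the authors' deposited table MMP1 had a log2 fold change of 3.48 with an adjusted p of 5.71e-06. By the labelled counts, that sign is control over knockout.

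The stromelysins were at the limit of detection. MMP3, which also activates the collagenase precursor, had 9 and 3 counts in the sgControl-labelled libraries and no count in either library labelled sg53BP1. Set at a floor of 3 counts over the group, its level in the sg53BP1-labelled libraries was 4.31-fold lower. This value leaves out the counting error of the sgControl counts, so it is no lower bound. Without the low-count filter MMP3 had an edgeR adjusted p of 0.0997. MMP10 had no reads in the sgControl pair and 3 and 0 counts in the sg53BP1-labelled ones, so that its level was at or under the floor in both groups. Both genes sit beside MMP1 in a cluster of 9 metalloproteinase genes spanning 435 kb of chromosome 11 in GENCODE release 29.

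The genes of this cluster did not share 1 direction. For this comparison the neighbours of MMP1 were chosen by position after their values had been seen, and 7 of the 9 were analysed here. MMP7, or matrilysin, an enzyme without the C-terminal hemopexin domain of its relatives, had 9 and 19 counts in the sgControl-labelled libraries and 66 and 51 counts in the sg53BP1-labelled ones. Its log2 fold change was 1.94 (SE 0.48), and its edgeR adjusted p was 0.0553, which misses the threshold. The DESeq2 Wald test gave MMP7 an adjusted p of 0.0382, and edgeR gave 0.00601 and 3.76e-05 without sgControl replicate 1 or 2 and 0.652 and 0.526 without sg53BP1 replicate 1 or 2. MMP8, the neutrophil collagenase, had 7 and 15 counts against 0 and 1, and the summed groups had a ratio of 23.7 with a 95% Clopper-Pearson counting interval of 3.83 to 977. MMP12 and MMP13 had between 0 and 5 counts in each library. MMP7, at one end of the cluster, and MMP1 therefore had opposite signs, and of the pair only MMP1 passed the test.

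**Figure D2:**
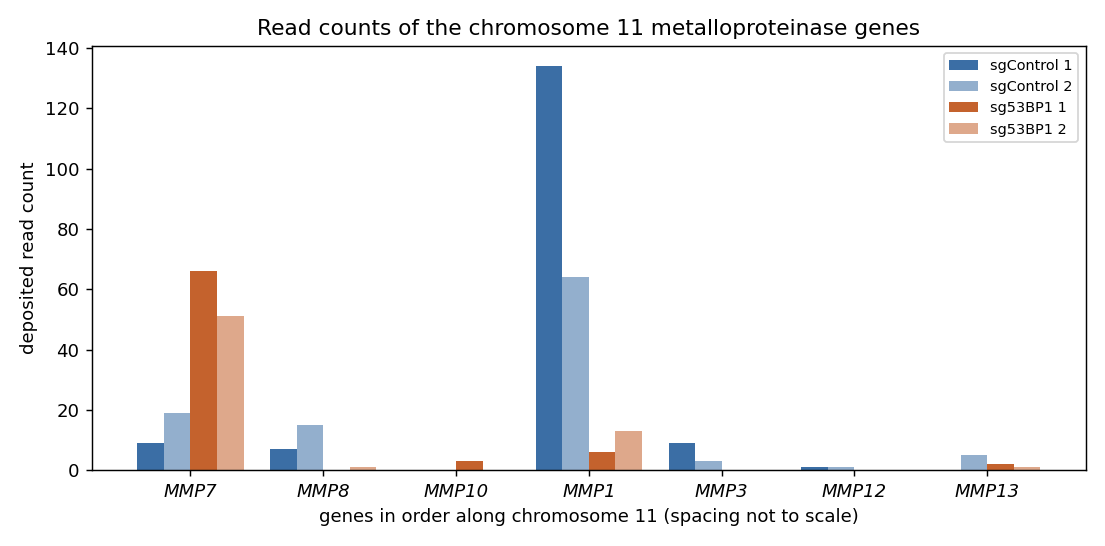
Deposited read counts of 7 metalloproteinase genes in their order along chromosome 11, with 1 bar per library and equal spacing between genes. MMP1 was highest in the sgControl-labelled libraries (134 and 64 counts) and MMP7 in the sg53BP1-labelled ones (66 and 51 counts).

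MMP2, the gelatinase, was the most abundant member to pass the test. The libraries held 35173 and 31833 MMP2 counts in the sgControl-labelled libraries and 18363 and 18845 in the sg53BP1-labelled ones. In CPM these were 2119 and 1895 against 1016 and 1047, and the groups lay apart by far more than the 1.12-fold and 1.03-fold gaps within them. MMP2 (ENSG00000087245, chromosome 16) was 1.95-fold lower, at −0.96 on the log2 scale (SE 0.12) and a 95% interval of −1.23 to −0.69 (edgeR adjusted p = 0.00298). The adjusted p was 0.296 and 0.258 without sg53BP1 replicate 1 or 2, with log2 fold changes of −0.94 and −0.98. The authors' deposited table gave MMP2 a log2 fold change of 0.94 with an adjusted p of 3.00e-09. By the labelled counts, this sign too is control over knockout.

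Among the membrane-type enzymes no change passed the test. MMP14, the surface activator of MMP2, had 40891 and 28305 counts in the sgControl-labelled libraries and 27086 and 28907 in the sg53BP1-labelled ones. In CPM these were 2464 and 1685 against 1498 and 1606. sgControl replicate 1 stood alone, and the other 3 libraries lay close together. The log2 fold change of MMP14 (ENSG00000157227, chromosome 14) was −0.42 (SE 0.18) with a 95% interval of −0.85 to 0.01 (edgeR adjusted p = 0.273). Without sgControl replicate 1 it was −0.09 (edgeR adjusted p = 0.585), and without sgControl replicate 2 it was −0.66 (edgeR adjusted p = 1.70e-10).

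MMP15, a relative of MMP14 at the cell surface, had 271 and 624 counts in the sgControl-labelled libraries and 336 and 405 in the sg53BP1-labelled ones, or 16.3 and 37.1 CPM against 18.6 and 22.5 CPM. Both libraries labelled sg53BP1 lay inside the range of the sgControl pair, which spanned 2.27-fold. Its log2 fold change was −0.38 with a 95% interval of −1.72 to 0.96 (edgeR adjusted p = 0.745). Without sgControl replicate 1 it was −0.82 (edgeR adjusted p = 8.85e-06), and without sgControl replicate 2 it was 0.34 (edgeR adjusted p = 0.219). MMP24, a membrane-type enzyme best known from the nervous system, had 6 and 21 counts against 8 and 15, again with the libraries labelled sg53BP1 inside the sgControl range. Its log2 fold change was −0.34 with a 95% interval of −1.93 to 1.26 (edgeR adjusted p = 0.853), and it was 0.82 without sgControl replicate 2 and 0.05 without sg53BP1 replicate 1.

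The abundant inhibitors stayed within narrow bounds. TIMP1 had 1991 and 2376 counts in the sgControl-labelled libraries and 1959 and 2220 in the sg53BP1-labelled ones, with means of 131 ± 15.2 and 116 ± 10.6 CPM (SD, n = 2 each). The groups overlapped, and the log2 fold change was −0.17 with a 95% interval of −0.49 to 0.14 (edgeR adjusted p = 0.554). TIMP2, the inhibitor that also joins MMP14 in binding the MMP2 precursor, had 7201 and 7512 counts against 7545 and 7438, or 434 and 447 CPM against 417 and 413 CPM. Its groups lay apart only slightly, with a log2 fold change of −0.09 and a 95% interval of −0.35 to 0.18 (edgeR adjusted p = 0.762). A fold decrease of TIMP2 as large as the 1.95-fold of MMP2 was outside its interval, whose upper end is 1.28-fold. TIMP3, the matrix-bound inhibitor, had 3 and 13 counts in the sgControl-labelled libraries and 5 and 1 in the sg53BP1-labelled ones. The groups overlapped, and the ratio of the summed groups, 2.87, had a 95% Clopper-Pearson counting interval of 1.07 to 8.96, which leaves out the spread between libraries. In the authors' deposited table the adjusted p of MMP14, MMP15, MMP24, TIMP1, TIMP2 and TIMP3 lay between 0.27 and 0.989, and none was given for MMP3 and MMP10.

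**Figure D3:**
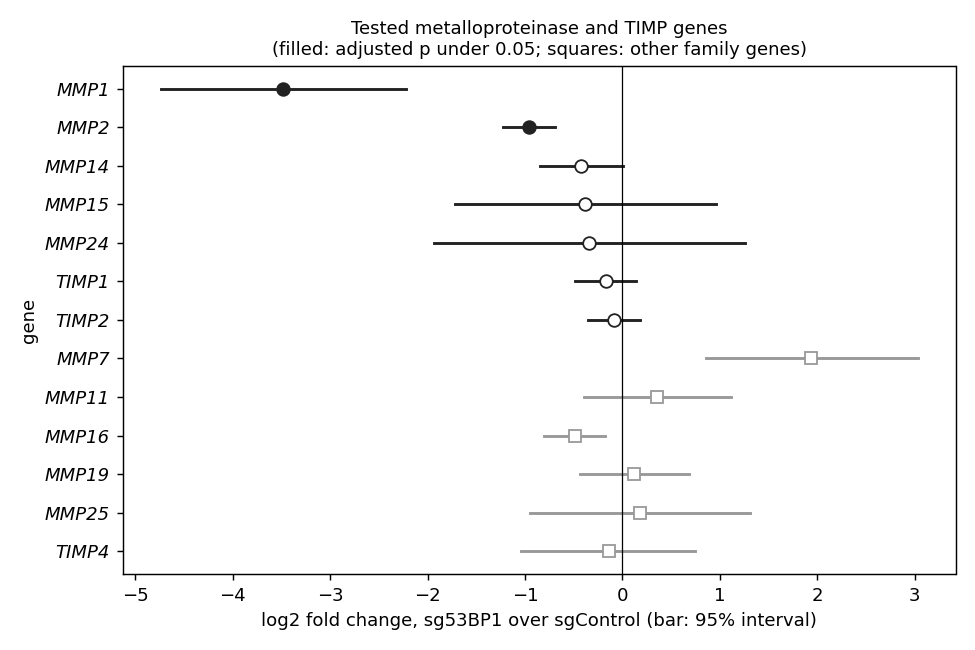
Log2 fold change (sg53BP1 over sgControl) with its 95% interval for the 7 tested members (circles) and 6 other tested genes of the family (squares); filled symbols passed an adjusted p of 0.05. MMP1 (−3.48) and MMP2 (−0.96) were the filled symbols, while TIMP1 and TIMP2 had narrow intervals that include 0.

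Within a library, ratios between members do not depend on how libraries are scaled. The ratio of MMP2 to TIMP2, in CPM per kilobase, was 5.58 and 4.84 in the sgControl-labelled libraries and 2.78 and 2.89 in the sg53BP1-labelled ones. The ratio of MMP2 to MMP14 was 0.778 and 1.02 against 0.613 and 0.59, also without overlap. For MMP14 to TIMP2 it was 7.17 and 4.75 against 4.53 and 4.90, where sgControl replicate 1 alone was high. TIMP2 to TIMP1 gave 0.989 and 0.865 against 1.05 and 0.917, with overlap. With 2 libraries against 2, a two-sided exact permutation test cannot go below p = 0.333, so these ratios are a description. MMP2 and MMP14 together made up 82.2% to 88.8% of the counts of the 10 members in each library, and the 10 members made up 0.514% and 0.42% of all gene counts in the sgControl-labelled libraries and 0.305% and 0.323% in the sg53BP1-labelled ones.

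**Figure D4:**
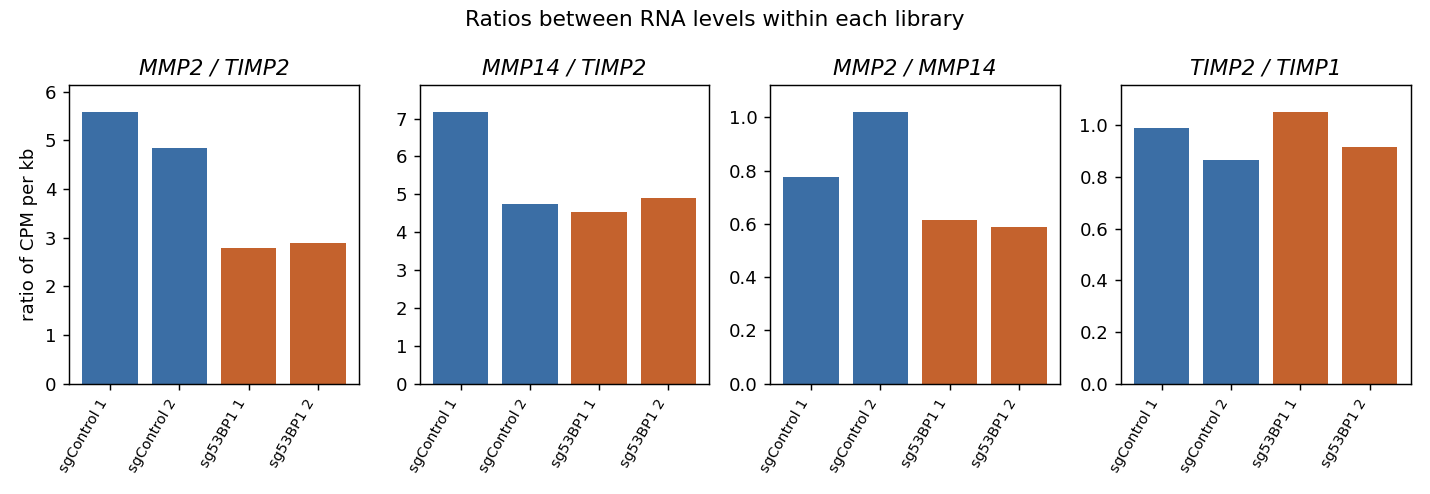
Ratios of RNA levels in CPM per kilobase of exon between pairs of members, with 1 bar per library and axes from 0. MMP2 to TIMP2 was 5.58 and 4.84 in the sgControl-labelled libraries and 2.78 and 2.89 in the sg53BP1-labelled ones, and TIMP2 to TIMP1 overlapped between the groups.

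The genes whose pattern over the 4 libraries was most like that of MMP1 were ATP6V0D2, SEMA3D and ABCC9. Likeness was the Euclidean distance between log2 CPM values centred on each gene's mean, over 10354 genes with a mean of at least 5 CPM, and the distances were 0.627, 0.839 and 0.96. ABCC9, a subunit of ATP-sensitive potassium channels, had 761 and 340 counts in the sgControl-labelled libraries and 65 and 47 in the sg53BP1-labelled ones. Like ATP6V0D2 and SEMA3D, it had the same order within the sgControl pair as MMP1. The edgeR adjusted p was 0.00276 for ATP6V0D2, a vacuolar proton pump subunit, 0.00942 for the secreted guidance protein SEMA3D and 0.0588 for ABCC9. Without sg53BP1 replicate 1 or 2 it was 0.168 and 0.112 for ATP6V0D2 and 0.296 and 0.221 for SEMA3D. Nearest to MMP2 were ST3GAL5, a sialyltransferase of ganglioside synthesis, LHFPL2 and ABHD8, at distances of 0.0792, 0.0971 and 0.109. LHFPL2 had 1700 and 1540 counts against 953 and 969. With 4 libraries, likeness of this kind is a description only. The genes were picked for likeness to a called member, so their adjusted p-values are no separate finding.

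The rest of the family did not pass the test. Of 17 further metalloproteinase and TIMP genes, 14 were analysed here and 6 had enough counts to be tested, and their median log2 fold change was 0.15 with none called by edgeR. Before adjustment 2 of the 6, MMP7 and MMP16, were under 0.05, both named after their values were seen, and the DESeq2 Wald test called MMP7. MMP16, a further membrane-type enzyme, had 630 and 608 counts in the sgControl-labelled libraries and 475 and 477 in the sg53BP1-labelled ones, at −0.49 on the log2 scale (SE 0.14; edgeR adjusted p = 0.0847). Its edgeR adjusted p was 0.0385 and 0.0103 without sgControl replicate 1 or 2, and 0.658 and 0.668 without sg53BP1 replicate 1 or 2. TIMP4, the remaining inhibitor, had 58 and 36 counts against 49 and 43. Over the 24 genes of the family analysed here, 13 were tested and 2 of them, or 15.4%, were called, beside 5.08% of all genes tested.

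Related proteases of the ADAM and ADAMTS families were mostly uncalled. None of 10 tested ADAM genes passed, with a median log2 fold change of −0.17. Of 11 tested ADAMTS genes 1 fell, or 9.09% beside 5.08% of all genes, with a median of −0.63. ADAMTS6, a secreted metalloproteinase, had 860 and 929 counts in the sgControl-labelled libraries and 363 and 292 in the sg53BP1-labelled ones and was 2.95-fold lower (edgeR adjusted p = 0.00115).

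Of 14 tested genes that activate, clear, inhibit or otherwise regulate metalloproteinases, 3 fell and none rose, a share of 21.4% beside 5.08% of all genes, with a median log2 fold change of −0.35. PLAT, the tissue-type activator of plasminogen, which in turn can open metalloproteinase precursors, had 6520 and 3828 counts in the sgControl-labelled libraries and 1643 and 1411 in the sg53BP1-labelled ones. It was 3.67-fold lower (edgeR adjusted p = 0.0417), with a log2 fold change of −1.40 without sgControl replicate 1 and −2.21 without sgControl replicate 2. SERPINE2, a secreted inhibitor of serine proteases, had 12982 and 18305 counts against 7862 and 8421 and was 2.07-fold lower (edgeR adjusted p = 0.0119).

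Of 11 tested cytokines and growth factors listed as inducers of some metalloproteinases, 4 fell. Which metalloproteinases each of them raises or lowers was not examined. The log2 fold change was negative in all 11, beside 6907 of all 13140 genes tested, and its median was −1.18. IL1B, the inflammatory cytokine that induces MMP1 and MMP3 in many stromal cells, had 3755 and 2938 counts in the sgControl-labelled libraries and 957 and 932 in the sg53BP1-labelled ones. It was 3.83-fold lower (edgeR adjusted p = 0.000397). CSF2 was 5.25-fold lower (edgeR adjusted p = 0.0106), the EGF receptor ligand AREG 2.26-fold lower (edgeR adjusted p = 0.0376) and TGFB1 1.69-fold lower (edgeR adjusted p = 0.0349). The share called in this list, 36.4%, stood beside 5.08% over all genes, and the list was chosen with earlier results of these data known. With limma-voom IL1B alone kept its call, and the adjusted p was 0.0614 for CSF2, 0.0575 for AREG and 0.0757 for TGFB1.

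Transcription factors of the AP-1, ETS and RUNX families, which act on metalloproteinase promoters, did not move together. Of 17 tested, 1 rose and none fell, a share of 5.88% that is near the 5.08% of all genes, with a median log2 fold change of 0.09. ETV1, an ETS factor, rose 1.44-fold (edgeR adjusted p = 0.0436), with an adjusted p of 0.072 in limma-voom.

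Of 14 tested substrates of these enzymes, 4 fell and 1 rose, or 35.7% beside 5.08% of all genes, with a median log2 fold change of −0.28. FN1, which encodes fibronectin, had 179596 and 180837 counts in the sgControl-labelled libraries and 78692 and 74295 in the sg53BP1-labelled ones. The matricellular proteins TNC and SPARC were 2.27-fold and 1.69-fold lower (edgeR adjusted p = 0.0023 and 0.0084). HSPG2, the basement membrane proteoglycan perlecan, was the gene that rose, with a log2 fold change of 0.56 (edgeR adjusted p = 0.0469, limma-voom adjusted p = 0.0852), and is named after its values were seen. Calls of the 14 called genes of these lists were lost without either library labelled sg53BP1 and kept without either labelled sgControl. Such fits take their spread from the group left whole, and the sgControl pair lay further apart. The contrast is therefore no measure of how firm a single gene is.

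Some fibroblast markers fell along with MMP1 and MMP2. Of 7 genes on that list 5 were tested, 2 fell and none rose, or 40% beside 5.08% of all genes, and the summed level lay between 336 and 379 CPM in the sgControl-labelled libraries and between 203 and 213 CPM in the sg53BP1-labelled ones. THY1 was 1.81-fold lower (edgeR adjusted p = 0.00602) and PDGFRA 3.74-fold lower (edgeR adjusted p = 0.0386), while LUM was under 1 CPM in every library. Without sg53BP1 replicate 1 or 2 the edgeR adjusted p was 0.301 and 0.23 for THY1 and 0.569 and 0.51 for PDGFRA, and with limma-voom that of PDGFRA was 0.075. Of 5 macrophage and monocyte markers, 4 (PTPRC, CD14, CD68 and ITGAM) were under 1 CPM throughout or had no row, and the summed level was 4.52 to 9.58 CPM against 2.33 to 2.82 CPM. Endothelial markers summed to 6.02 to 15.8 CPM against 2.33 to 3.82 CPM, with CDH5 and VWF under 1 CPM in every library, and the epithelial markers EPCAM and CDH1 stayed at or under 0.111 CPM in sum. All libraries are labelled as RPE1 cells, and the lists were read as genes, not as cell types present. The part of these markers in the results was not tested. In bulk RNA, fewer cells that express a gene and less RNA per cell cannot be told apart.

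**Figure D5:**
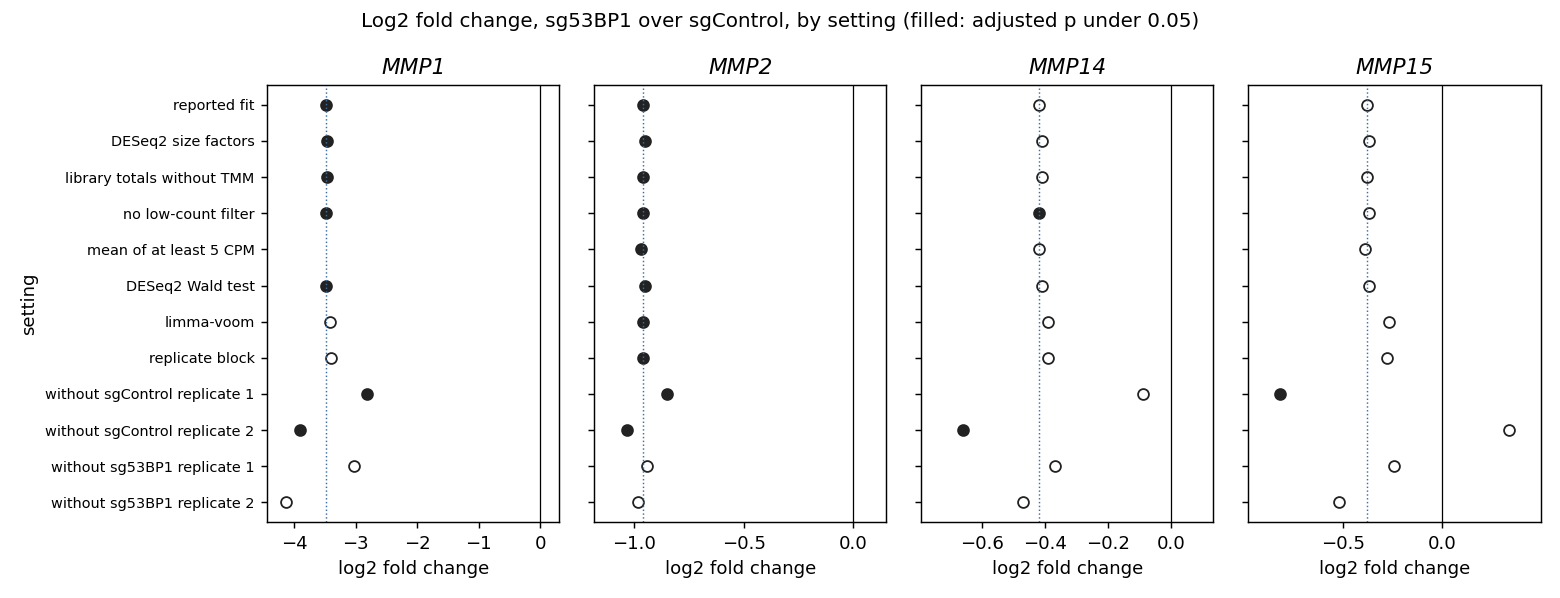
Log2 fold change (sg53BP1 over sgControl) of MMP1, MMP2, MMP14 and MMP15 under each setting of the analysis, with filled points where the adjusted p was under 0.05 and a dotted line at the reported value. MMP1 stayed between −4.13 and −2.81 and MMP2 between −1.03 and −0.85, whereas MMP14 ranged from −0.66 to −0.09 and MMP15 from −0.82 to 0.34.

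Several members overlap the spans of other genes in GENCODE release 29, introns included. Whether exons overlap was not examined, and the sources used here do not state the strand setting of the counts. How far reads of such pairs were mixed is therefore not known. MMP1, MMP3 and MMP10 overlap the pseudogene WTAPP1 on the opposite strand, MMP2 overlaps MMP2-AS1, and TIMP1 and TIMP3 lie within the synapsin genes SYN1 and SYN3, which had at most 2 counts in any library. MMP24 overlaps MMP24OS on the opposite strand, whose 231 to 265 counts per library were well above the 6 to 21 counts of MMP24.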

How the data were processed

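RNA of 2 libraries labelled sgControl and 2 labelled sg53BP1 was sequenced as paired-end reads, per the labels' protocols. The submitters' processing notes name the build hg19 and the tools HISAT2 (2.1.0), Bowtie2 (2.2.3) and HTSeq (0.6.0); which tool did what, the gene models and strandedness were not given in the sources used here. The authors deposited raw read counts per gene and library without normalization. Their own comparison was deposited beside them, as a signal value (the mean level of a gene), a log2 fold change with its error, a score (the test statistic) and p-values, raw and adjusted, which the authors computed with column names of DESeq2 per the file headers. For all 7 tested members the authors' deposited sign was the opposite of that of knockout over control used here. The column name gives no direction, so control over knockout was read from the labelled counts.

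The table's 20050 rows held 19653 Ensembl identifiers, and 397 repeats with identical counts were removed. Totals of 16654411 to 18164086 counts put a floor of 3 counts at 0.165 to 0.18 CPM. Counting intervals (95%, Clopper-Pearson) and floors cover counting error alone, because PCR copies of a molecule cannot be recognised here. Groups were compared with edgeR 4.0.16 in R 4.3.3 (filterByExpr, TMM, robust quasi-likelihood F test, group as the only term), with Benjamini-Hochberg adjustment over 13140 genes and a threshold of 0.05. Standard errors and 95% intervals were back-calculated from the F statistic. The test was also run on simulated data with the same spread for every gene and both groups. That check did not cover the standard errors, the intervals or the unequal spread of the groups. Lengths, overlaps and gene order came from GENCODE release 29, which is on another build than the counts; promoters came from RefSeq (GRCh38.p14). Other settings were DESeq2 1.42.0 size factors and its Wald test, library totals, no filter on low counts, a mean of at least 5 CPM, limma-voom (limma 3.58.1), a minimum log2 fold change of 1, a replicate block, and leave-one-out fits.

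The members and the gene lists were chosen with earlier results of these data known. All 10 members are named. Of each other list, up to 4 called genes with the smallest adjusted p are named, and for each called member that reached 5 CPM in its higher group the 3 genes of most similar pattern, clone names aside; exceptions are said to be named after their values were seen. Of the genes that met this rule, some are not reported here.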

Additional observations from a re-analysis of the deposited data

How the results depend on the processing

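MMP1 was called lower in 7 of 11 alternatives and MMP2 in 9 of 12, a minimum log2 fold change of 1 included, and the log2 fold changes of both stayed negative in all of them. Over the 7 tested members, 63 of 75 alternative values kept their direction and side of the threshold. The number of members called was 1 at a mean of at least 5 CPM (MMP1 not tested), with the replicate block (MMP1 at adjusted p = 0.0602), with limma-voom and at a minimum log2 fold change of 1 (MMP1 alone); it was between 0 and 3 when 1 library was left out. The number of genes called over the whole table was 667 as reported, 1548 without the low-count filter, 297 with the replicate block, 404 with limma-voom and 368 at a minimum log2 fold change of 1, and between 5 and 3358 when 1 library was left out (3358 without sgControl replicate 1, 2493 without sgControl replicate 2, and 5 without either library labelled sg53BP1). Same-numbered libraries deviated from their group means with a correlation of 0.029, and they share only a number; with the replicate block 9 of the 14 called genes of the other lists stayed called, and PDGFRA did not (adjusted p = 0.0932). The log2 fold change of MMP15 was −0.82 without sgControl replicate 1 (adjusted p = 8.85e-06) and turned to 0.34 without sgControl replicate 2, and that of MMP24 was −0.93 without sgControl replicate 1 and turned to 0.82 without sgControl replicate 2 and 0.05 without sg53BP1 replicate 1; the cause was not tested. MMP14 passed without the low-count filter (adjusted p = 0.0218). Fits without 1 library take the spread of the remaining single library from the other group. Counts of 21 or fewer per library limit what can be said of MMP3, MMP10, MMP24 and TIMP3.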
